A study of Taeniopygia guttata with 5 samples.

Results

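The energy genes described here are 68 transcripts whose gene symbols name subunits of the respiratory chain complexes and ATP synthase, mitochondrial ribosomal proteins, mitochondrial import proteins or enzymes of glycolysis and the citric acid cycle. They were taken by symbol from the 4675 transcripts listed in at least 1 of 4 deposited tables. RNA-Seq was made from male zebra finches in 4 groups: HVC at 100 d, HVC at 45 d, whole brain (WB) at 100 d and WB at 45 d. HVC is a forebrain nucleus that songbirds need for song, dissected here from brain sections, and its samples may hold some of the ventricular zone that lies on it. Juveniles lived with their parents and adults in group cages. The birds were untreated, and were collected after an hour in which they neither sang nor heard song. Each HVC library pooled RNA of 4 birds and each WB library pooled 2 brains. HVC at 45 d had 2 libraries, named R92L1 and R92L2 after their columns, and each other group had 1 library.

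Mitochondria make most of the ATP of neurons. Complexes I, III and IV of the respiratory chain pump protons across the inner membrane as electrons pass to oxygen, complex II feeds electrons in from the citric acid cycle, and ATP synthase uses the proton gradient to make ATP. Nearly all subunits are encoded in the nucleus, made in the cytosol and imported, while a few core subunits are made by the mitochondrion's own ribosome, whose proteins are nuclear encoded too. Glycolysis in the cytosol yields pyruvate, which mitochondria burn, or lactate. In nervous tissue ion pumping and synaptic transmission are the main users of ATP.

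Each deposited table compared a pair of groups and listed only 1800 transcripts, those ranked first by p-value among the 10859 to 11507 tested, so a transcript has counts only in libraries of the tables that list it. Of the 68 energy genes, 21 had counts in all 5 libraries, against 1205 of the 4675 transcripts. Because of this listing, values near 0 are rare in each comparison's own table, and counts of differing genes describe listed genes only. The listed counts summed to 630838 reads in HVC at 100 d, 495316 and 598836 in HVC at 45 d, 961124 in WB at 100 d and 1014565 in WB at 45 d. Levels below are reads divided by the relative size of the library (HVC at 100 d is 1), called scaled reads; they compare libraries for a gene and not genes with each other. Between the 2 libraries of 45 d HVC, the median absolute difference was 0.31 log2 units over the 46 energy genes with at least 20 reads, and 0.32 over all 2391 such transcripts. The 4 HVC markers, ALDH1A2, CRHBP, NTS and CADPS2, were higher in HVC at both ages. HVC and WB libraries came from different sequencing runs, so tissue and run cannot be told apart. In bulk tissue, fewer cells of a type and less RNA per cell cannot be told apart either.

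The 68 genes comprised 12 of complex I, 1 of complex II, 2 of complex III, 9 grouped with complex IV, 10 of ATP synthase, 14 and 8 of the large and small mitochondrial ribosomal subunits, 3 import proteins, 6 glycolysis enzymes or regulators, and IDH1 and MDH1. The remaining match, COX4NB, is not a cytochrome oxidase subunit despite its symbol: it encodes a protein of an endoplasmic reticulum membrane complex. MRPS36 carries a ribosomal name, but its product is now placed in the 2-oxoglutarate dehydrogenase complex. No hexokinase, phosphoglycerate kinase, aldolase or pyruvate dehydrogenase symbol of the rule was among the listed transcripts.

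The first comparison asked which energy genes differed between HVC and the whole brain in juveniles. At 45 d, 40 energy genes could be fitted, and 14 were higher and 8 lower in HVC than in WB at an adjusted p under 0.1. Of all 1928 transcripts fitted, 15.1% were higher and 22.5% lower. The median log2 fold change was 0.99 for the energy genes and -0.69 for all transcripts. Genes of the same complex were called in both directions. The alpha subunit in the head of ATP synthase was higher, while 3 subunits of its membrane part and stalk were lower. COX5A and COX7B of cytochrome oxidase differed in opposite directions. Scaling to the listed transcripts alone moved the split of calls toward higher: 8 higher and 1 lower with TMM, 15 and 1 with relative log expression, and 6 and 1 with plain sums. Over all 1892 transcripts fitted, these gave 182 higher and 97 lower, 378 and 66, and 121 and 51. Of the 22 calls, those of ATP5A1, COX7B, ENO1, MRPS17, NDUFA4, NDUFS4 and TOMM20 were kept under all 3. Of the 8 lower calls, that of COX7B alone was kept under any of them. Over the transcripts fitted both ways, those scalings raised the log2 fold change by a median of 0.28, 0.53 and 0.34 per transcript. DESeq2 called ATP5A1, COX7B, ENO1, MRPS17 and NDUFA4 alone among the energy genes, and 6.33% of all transcripts. All 22 calls came from the 34 energy genes in this comparison's own table, and the 6 that only other tables listed had a median of 0.03. Over all transcripts, 725 of 1687 in that table were called. Of the 241 that only other tables listed, 0 were called, with a median of 0.05. The split of calls by table is thus not particular to energy genes.

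**Figure D1:**
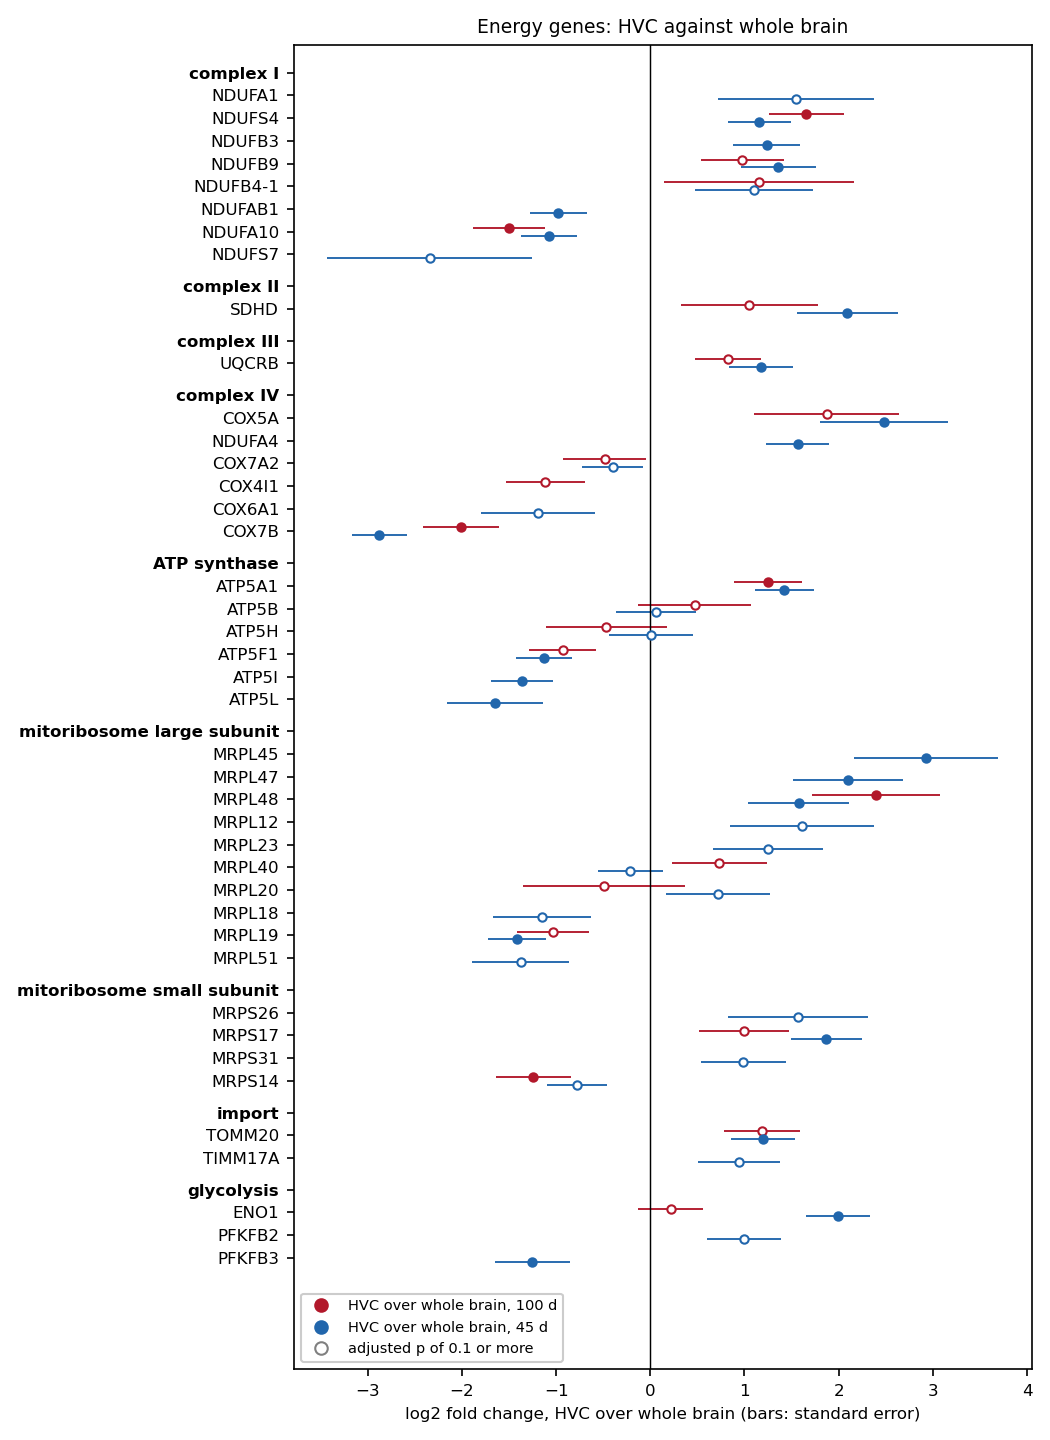
Log2 fold change of HVC over whole brain (x axis) for each energy gene that could be fitted (rows, by complex or role), at 100 d in red and 45 d in blue. Bars are standard errors from the fit, filled points passed an adjusted p of 0.1 and open points did not. COX7B lies at the left at both ages (-2.01 at 100 d and -2.88 at 45 d), and complexes I and IV and ATP synthase hold filled points on both sides of 0.

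In complex I, which takes electrons from NADH, 3 of 8 fitted genes were higher and 2 lower at 45 d. NDUFS4, an accessory subunit on the matrix arm, had 250.2 and 257.9 scaled reads in 45 d HVC, against 113.8 in 45 d WB. Its log2 fold change was 1.16 ± 0.34 (SE, adjusted p = 0.0385). The pair of HVC libraries nearly coincided. This call was kept under all 3 other scalings but lost with DESeq2 (adjusted p = 0.481). In the additive model of tissue and age without R92L1, in which no transcript of the tables was called, its log2 fold change was 1.41. NDUFB3, of the membrane arm, had 253.5 and 163.3 scaled reads in HVC and 88.4 in WB (1.23 ± 0.36, adjusted p = 0.0393). NDUFB9, of the same arm, had 176.3 and 91.8 scaled reads in HVC and 51.9 in WB (1.36 ± 0.40, adjusted p = 0.0385). Its HVC libraries lay far apart, and without R92L1 the log2 fold change was 0.82. The calls of NDUFB3 and NDUFB9 were both lost with TMM, plain sums and DESeq2 (DESeq2 adjusted p = 0.559 and 0.668). That of NDUFB9 was also lost in the additive model (adjusted p = 0.251). NDUFA10 was lower, with 199.5 and 264.3 scaled reads in HVC and 489.4 in WB (-1.08 ± 0.30, adjusted p = 0.0291). NDUFAB1, the mitochondrial acyl carrier protein that also sits in complex I, was lower too (-0.98 ± 0.30, adjusted p = 0.0572). However, the span annotated for NDUFAB1 is 165010 bp long and overlaps 3 other listed genes, UBFD1, PALB2 and DCTN5. The NDUFAB1 call was lost under all 3 other scalings and with DESeq2. NDUFS7, a core subunit, had 1 and 3 reads in HVC and 19 in WB and did not pass the test (-2.34 ± 1.09, adjusted p = 0.314).

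NDUFS4 and NDUFA10 were the complex I genes called at 100 d. NDUFS4 had 295 scaled reads in HVC and 93.6 in WB (1.66 ± 0.40, adjusted p = 0.00353). NDUFA10 had 160 scaled reads in HVC and 453.3 in WB (-1.50 ± 0.38, adjusted p = 0.00693). The NDUFS4 call at 100 d was lost with DESeq2 (adjusted p = 0.414), and the NDUFA10 calls at both ages were lost under all 3 other scalings and with DESeq2. All 3 HVC libraries lay above both WB libraries for NDUFS4 and below both for NDUFA10. On taeGut1, NDUFS4 lies at chrZ:46636290-46683739 and NDUFA10 at chr7:1914518-1940529. NDUFS6, an accessory subunit of the matrix arm, had 0 reads in 100 d HVC and 23 in 100 d WB. The exact 95% interval of its read ratio ran from 0 to 0.262 and covers counting error only. It also had few reads in WB at 45 d (5), and no count for 45 d HVC was listed, so it rests on 1 library a side.

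Of the 3 genes of complexes II and III, SDHD and UQCRB could be compared between HVC and WB, and UQCR had counts in HVC only. SDHD, a membrane anchor of succinate dehydrogenase, had 88.2 and 45.0 scaled reads in 45 d HVC and 15.5 in 45 d WB (2.09 ± 0.54, adjusted p = 0.017). Adult HVC had 18 scaled reads of it and adult WB 8.63, which did not pass the test (1.05 ± 0.73, adjusted p = 1). The 45 d call of SDHD was lost with TMM, plain sums, DESeq2 and the additive model of tissue and age. UQCRB, a subunit of the cytochrome bc1 complex, held the most reads of the respiratory chain genes, not counted per length. It had 2664 and 1794 scaled reads in 45 d HVC and 986.1 in 45 d WB (1.18 ± 0.34, adjusted p = 0.0365). In adults UQCRB had 1882 scaled reads in HVC and 1065 in WB (0.82 ± 0.35, adjusted p = 0.33). Its 45 d call was lost with TMM, plain sums, DESeq2 and the additive model too.

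Complex IV, cytochrome c oxidase, passes electrons to oxygen, and it held the lowest fold change among the fitted energy genes. COX7B, a small subunit encoded at chr4A:18172405-18174867, had 124.5 and 135.8 scaled reads in 45 d HVC and 957.9 in 45 d WB. This was 7.35-fold lower in HVC (log2 -2.88 ± 0.29, adjusted p = 1.61e-08). At 100 d it had 104 scaled reads in HVC and 419.5 in WB, 4.03-fold lower (-2.01 ± 0.41, adjusted p = 2.13e-04), a call that was lost with TMM (adjusted p = 0.138) and DESeq2 (adjusted p = 0.165). Every HVC library was below every WB library, and the 45 d call was kept under each other scaling and tool, but not in the additive model without R92L1, in which no transcript of the tables was called. COX5A, a nuclear-encoded subunit at chr10:1899427-1901701, was higher in HVC at 45 d, with 22 and 48 reads in HVC and 11 in WB (2.48 ± 0.68, adjusted p = 0.0271). Adult HVC held 27 reads of COX5A and adult WB 11 (1.87 ± 0.77, adjusted p = 0.292). The 45 d call of COX5A was lost with TMM, plain sums and DESeq2 (adjusted p = 0.538). NDUFA4, named for complex I but now known as a subunit of complex IV, had 308.6 and 390.9 scaled reads in 45 d HVC and 118.2 in 45 d WB (1.57 ± 0.34, adjusted p = 0.00336). That call was kept under all 3 other scalings and both other tools. COX4I1 had 99 scaled reads in 100 d HVC and 214.4 in 100 d WB and did not pass the test (-1.11 ± 0.42, adjusted p = 0.193). COX7A2 had 83 scaled reads in HVC at 100 d and 116.2 in WB, and 141.1 and 125.7 in HVC at 45 d and 175.7 in WB; neither difference passed the test.

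ATP synthase genes split by call at 45 d, with 1 of 6 fitted genes higher and 3 lower. ATP5A1, the alpha subunit of the catalytic head, had 659 and 648.8 scaled reads in 45 d HVC and 243.6 in 45 d WB (1.42 ± 0.32, adjusted p = 0.00468). At 100 d it had 488 scaled reads in HVC and 205.1 in WB (1.25 ± 0.36, adjusted p = 0.0262). The HVC libraries were all above the WB libraries. ATP5B, the beta subunit that pairs with it in the head, had 78.3 and 45.9 scaled reads in 45 d HVC and 59.1 in 45 d WB, a log2 fold change of 0.06 ± 0.43 (adjusted p = 1). It is annotated on the unplaced chromosome Un. ATP5I, ATP5L and ATP5F1, of the membrane part and stalk, were lower in HVC at 45 d. ATP5I (ATP5ME in RefSeq) had 157.6 and 93.6 scaled reads in HVC and 321.5 in WB (-1.36 ± 0.33, adjusted p = 0.00997). ATP5L (ATP5MG) had 17 and 19 reads in HVC and 103 in WB (-1.65 ± 0.51, adjusted p = 0.0537). None of the 3 passed under any other scaling. ATP5F1 (ATP5PB) had 336.1 and 235.8 scaled reads in 45 d HVC and 623.1 in 45 d WB (-1.13 ± 0.30, adjusted p = 0.0208), and 373 in 100 d HVC and 710.2 in 100 d WB (-0.93 ± 0.35, adjusted p = 0.208). The span of ATP5F1 overlaps that of RAP1A, and whether counting used strand is not given in the sources used here.

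**Figure D2:**
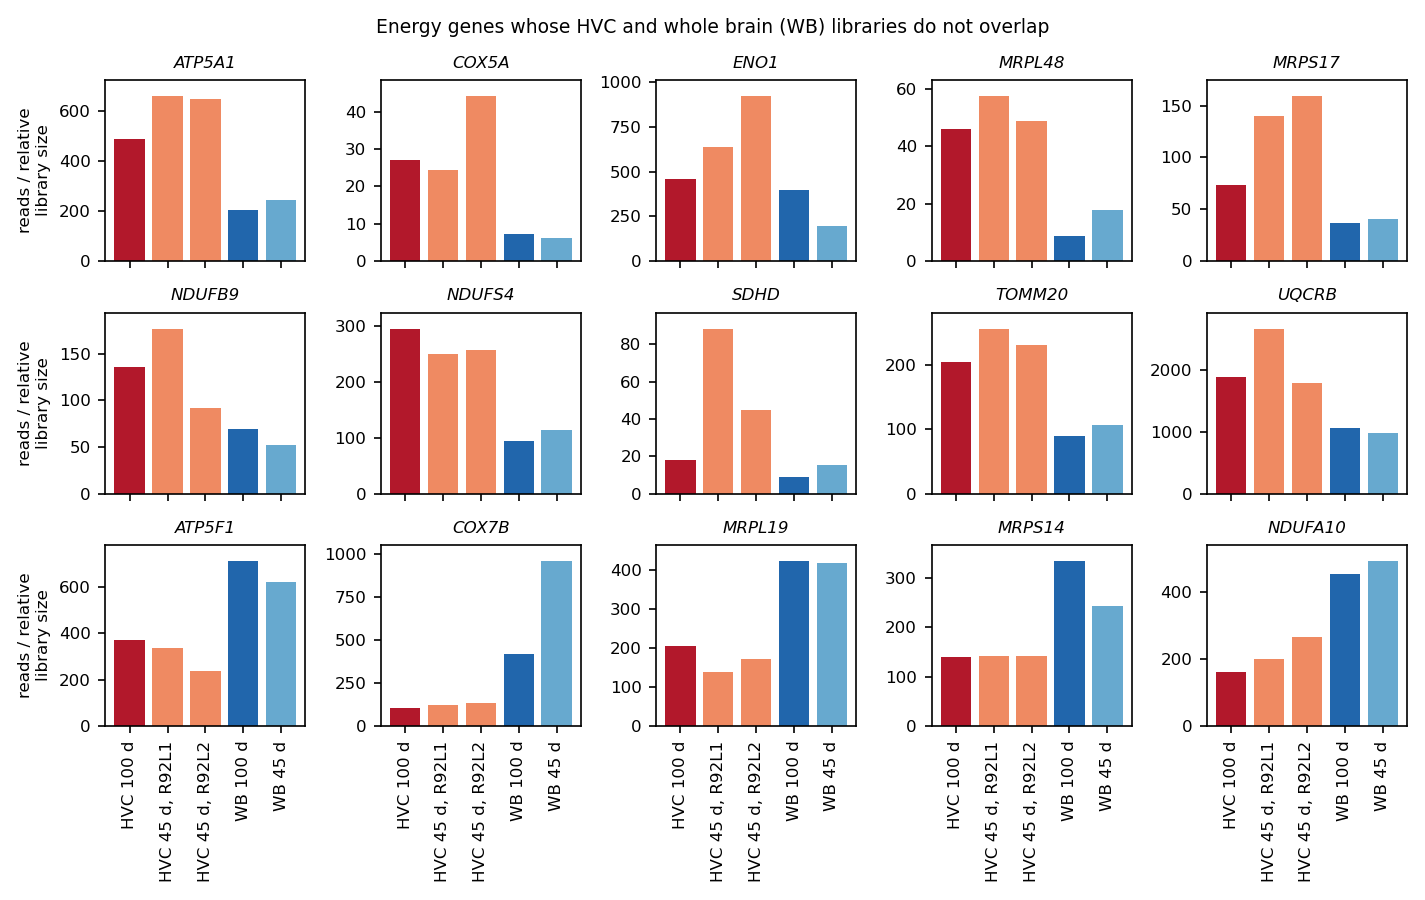
Scaled reads (y axis, linear, from 0) in each of the 5 libraries for the 15 energy genes whose 3 HVC libraries and 2 whole brain (WB) libraries do not overlap; HVC in red tones, WB in blue. The first 10 panels are higher in every HVC library and the last 5 lower; in ENO1 the 100 d HVC library (459) is close to the 100 d WB library (395.6).

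Over the 21 energy genes with counts in all 5 libraries, 10 were higher in all 3 HVC libraries than in both WB libraries and 5 were lower. Over all 1205 such transcripts, 30.2% were higher and 43.2% lower without overlap. The 10 were ATP5A1, COX5A, ENO1, MRPL48, MRPS17, NDUFB9, NDUFS4, SDHD, TOMM20 and UQCRB, and the 5 were ATP5F1, COX7B, MRPL19, MRPS14 and NDUFA10. The remaining 6 genes had overlapping HVC and WB libraries.

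Among proteins of the mitochondrial ribosome's large subunit, 3 of 10 fitted genes were higher in 45 d HVC and 1 was lower. MRPL47 had 43.0 and 47.7 scaled reads in HVC and 10.5 in WB (2.10 ± 0.58, adjusted p = 0.0295). MRPL48 had 57.3 and 48.6 scaled reads in 45 d HVC and 17.7 in 45 d WB (1.58 ± 0.53, adjusted p = 0.0927). It was higher at 100 d too, with 46 scaled reads in HVC and 8.63 in WB (2.40 ± 0.68, adjusted p = 0.0249). MRPL48, NDUFS4 and ATP5A1 were called higher in HVC at each age. The MRPL48 call was lost with TMM and DESeq2 at both ages, with plain sums at 45 d and with limma-voom at 100 d, and the ATP5A1 call was lost with TMM and DESeq2 at 100 d. MRPL45, a protein of the large subunit that faces the inner membrane, rested on few reads, 21 and 31 in HVC and 6 in WB (2.93 ± 0.77, adjusted p = 0.0197). MRPL19 went the other way, with 138.9 and 172.5 scaled reads in 45 d HVC and 416.5 in 45 d WB (-1.42 ± 0.30, adjusted p = 0.00335). In adults MRPL19 had 205 scaled reads in HVC and 420.8 in WB (-1.04 ± 0.38, adjusted p = 0.171). The 45 d call of MRPL19 was lost under all 3 other scalings and with DESeq2. Those of MRPL45 and MRPL47 were lost with plain sums and DESeq2.

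Of the small subunit, MRPS17 was higher at 45 d, with 140 and 158.8 scaled reads in HVC and 40.9 in WB (1.87 ± 0.38, adjusted p = 0.00163). In adults MRPS17 had 73 scaled reads in HVC and 36.5 in WB (1.0 ± 0.48, adjusted p = 0.502). MRPS14 had nearly level HVC libraries, 141 scaled reads at 100 d and 142.2 and 141.3 at 45 d, against 333.9 in WB at 100 d and 243.1 in WB at 45 d. It was lower in HVC at 100 d (-1.24 ± 0.40, adjusted p = 0.0732), and at 45 d it did not pass the test (-0.78 ± 0.32, adjusted p = 0.198). The 100 d call of MRPS14 was lost under all 3 other scalings, with DESeq2 and with limma-voom (adjusted p = 0.189). MRPS5 had counts in a single HVC library, 143 scaled reads at 100 d against 363.1 in WB, a read ratio of 0.394 with an exact 95% interval from 0.325 to 0.474 that covers counting error only.

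The import gene TOMM20, a receptor of the outer membrane, had 256.8 and 231.2 scaled reads in 45 d HVC and 106.6 in 45 d WB (1.19 ± 0.34, adjusted p = 0.0346). In adults TOMM20 had 206 scaled reads in HVC and 90.3 in WB, with nearly the same log2 fold change (1.19 ± 0.40) and an adjusted p of 0.106. TIMM17A, of the inner membrane translocase, had 70.5 and 71.6 scaled reads in 45 d HVC and 37.0 in 45 d WB and did not pass the test (0.94 ± 0.43, adjusted p = 0.312).

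In glycolysis, ENO1, which encodes an enolase, was higher in juvenile HVC and had the smallest adjusted p of the energy genes that were higher. It had 638.1 and 919.5 scaled reads in 45 d HVC and 196.1 in 45 d WB, 3.97-fold higher (log2 1.99 ± 0.34, adjusted p = 2.08e-04). In the additive model, which takes both ages together, its log2 fold change was 1.20 and the call was lost (adjusted p = 0.732). That model counts a difference of the tissue fold change between ages as spread. In that model ENO1 had 1.22 without R92L1 and 0.95 without R92L2. At 100 d it had 459 scaled reads in HVC and 395.6 in WB (0.21 ± 0.35, adjusted p = 1). PFKFB3, which makes the fructose bisphosphate that activates phosphofructokinase, was lower in 45 d HVC, with 57.3 and 34.0 scaled reads against 108.3 in WB (-1.25 ± 0.40, adjusted p = 0.0656). That call was lost under all 3 other scalings and with DESeq2. PFKFB2, of the same family, had 112.4 and 86.3 scaled reads in HVC and 49.7 in WB and did not pass the test (0.99 ± 0.39, adjusted p = 0.178). LDHB, the lactate dehydrogenase subunit of oxidative tissues, had more reads than any other energy gene, not counted per length. Its 100 d HVC library held 2233 scaled reads and its 100 d WB library 4453, a ratio of 0.502 (exact 95% counting interval 0.478 to 0.526). PGAM1 had 39 scaled reads in 100 d HVC and 15.3 in 100 d WB, a ratio of 2.56 (1.49 to 4.48), and these ratios have no replicate check.

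In adults as a whole, 22 energy genes could be fitted, and 3 were higher (NDUFS4, ATP5A1, MRPL48) and 3 lower (COX7B, NDUFA10, MRPS14) in 100 d HVC than in 100 d WB. Of all 1361 transcripts fitted, 10.7% were higher and 13.7% lower. The median log2 fold change was 0.60 for the energy genes and -0.42 for all. With TMM, relative log expression and plain sums over the listed transcripts, 1, 4 and 4 energy genes were higher and 0, 1 and 1 lower. Over all 1342 transcripts fitted, these gave 47, 113 and 176 higher and 12, 28 and 22 lower. The median shift per transcript, over those fitted both ways, was 0.32, 0.35 and 0.52 log2 units. DESeq2 called no energy gene at 100 d and 2.57% of all transcripts. In edgeR, 14 of 22 energy genes had an unadjusted p under 0.05, as did 875 of all 1361 transcripts. Of 8 further genes with counts in both 100 d libraries but outside the fit, the exact interval of the read ratio lay below 1 in 6 and above 1 in 2, PGAM1 and MRPL27. All 8 were in this comparison's own table, whose listing by p-value favours ratios away from 1. The intervals cover counting error only, and the share over all unfitted transcripts was not computed. These counts therefore show nothing particular to energy genes.

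Markers of other regions and cell types differed between the tissues in both directions. At 45 d, 5 of 6 fitted cerebellar markers and 4 of 4 myelin markers were lower in HVC; at 100 d, 4 of 5 and 1 of 3 were. The 4 myelin markers with counts, of 8, summed to 1583 and 1811 scaled reads in 45 d HVC and 3632 in 45 d WB. The 6 cerebellar markers with counts, of 10, summed to 275.5 and 435.9 in 45 d HVC and 3661 in 45 d WB, and 1 of them had a library at 0. Of choroid plexus markers, 3 of 5 had counts and summed to 44.1 and 35.8 in HVC and 863.4 in WB. In the other direction, VIM and DCX, of 3 fitted markers of dividing and new cells, were higher in 45 d HVC, and MCM6 was not called. These 3, of 10, summed to 631.5 and 815.8 in 45 d HVC and 237 in 45 d WB; at 100 d none of 3 was called. The part of these cells in the energy genes' differences was not tested. No red blood cell marker was among the listed transcripts.

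**Figure D3:**
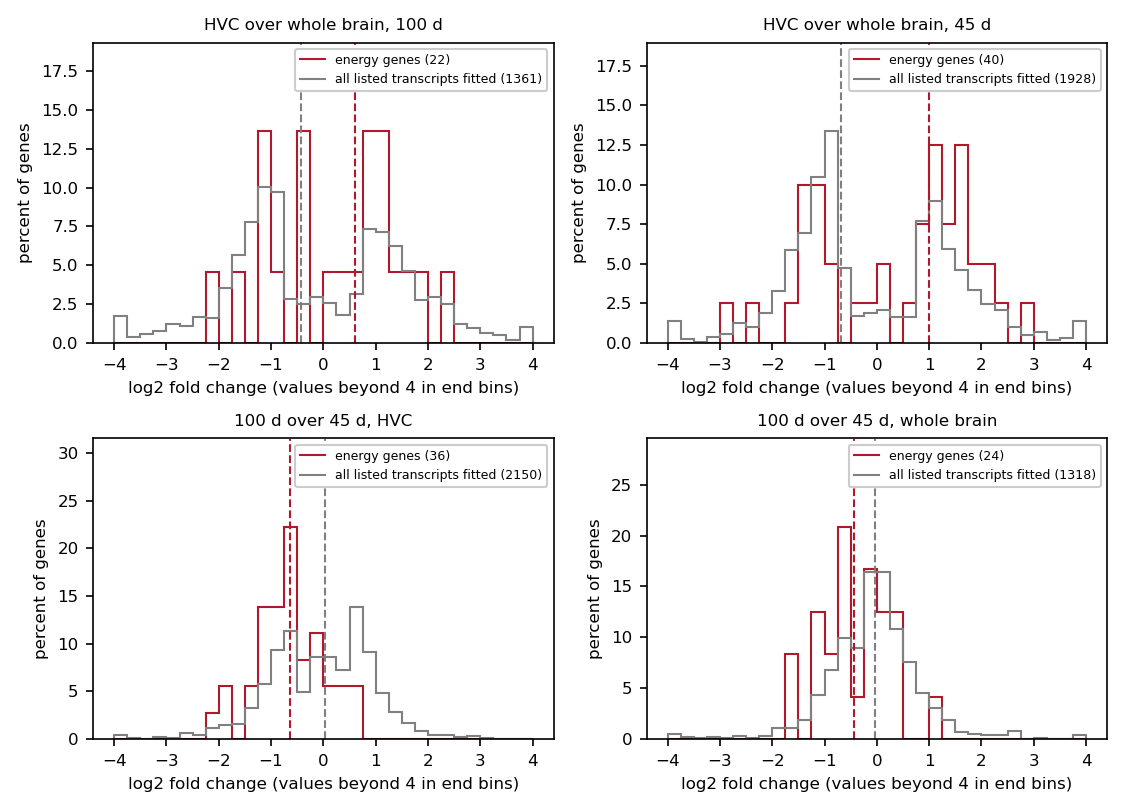
Percent of genes (y axis) by log2 fold change (x axis, bins of a fixed width) for the energy genes in red and all listed transcripts fitted in grey, in 4 comparisons; dashed lines are medians. The energy genes' median lies right of that of all transcripts in both tissue comparisons (0.60 and -0.42 at 100 d, 0.99 and -0.69 at 45 d) and left of it in both age comparisons (-0.65 and 0.02 in HVC, -0.44 and -0.03 in WB); the dip near 0 goes with the listing by p-value.

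The second question was how energy genes differed between adults and juveniles within HVC. No energy gene of the 36 fitted was called between 100 d and 45 d HVC, and neither was any of all 2150 transcripts (0%). The paper's own comparison reported genes that differed between these ages in HVC at q under 0.1, some of them of mitochondrial function. It also reported age differences of chosen genes by RT-qPCR in separate HVC samples. The 0 calls here therefore do not show that no gene differed. The fold changes were mostly below 0: 30 of 36 energy genes, against 49.3% of all transcripts, with medians of -0.65 and 0.02. At an unadjusted p under 0.05, 10 energy genes were below 0 and none above, against 11.1% of all transcripts below and 9.53% above. DESeq2 called 0 energy genes and 2 of all transcripts, and limma-voom called none. Over 38 energy genes with counts in all HVC libraries, the 100 d library lay below both 45 d libraries in 30 and above both in 5, against 40.9% and 46.5% of 2516 transcripts. With 1 library at 100 d, the spread between adult samples is unknown. Of the 11 energy genes that only other tables listed, 7 were below 0 and 4 above, with a median of -0.20. Over all 643 such transcripts, 332 were below 0 and 311 above, with a median of -0.01.

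**Figure D4:**
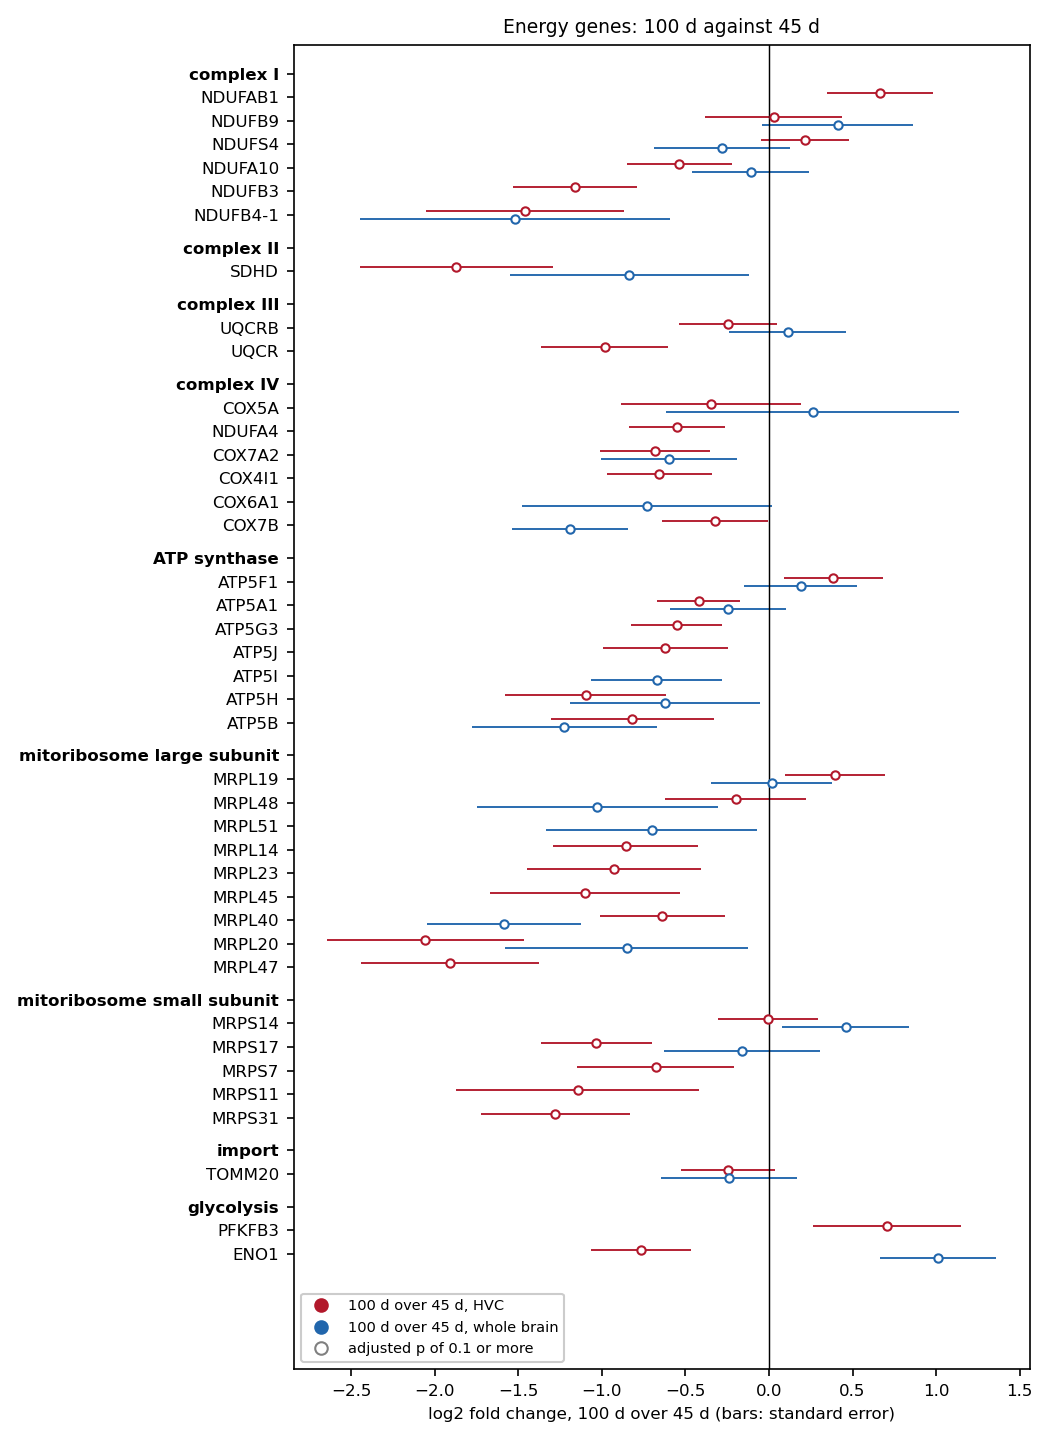
Log2 fold change of 100 d over 45 d (x axis) for each energy gene fitted (rows, by complex or role), in HVC in red and whole brain in blue, with standard errors. All points are open, since none passed an adjusted p of 0.1; in HVC 30 of 36 points lie left of 0, with MRPL20 (-2.06), MRPL47 (-1.91) and SDHD (-1.87) farthest left, and ENO1 lies on opposite sides in HVC (-0.76) and WB (1.01).

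MRPL20 and MRPL47, of the large mitochondrial ribosomal subunit, had the lowest fitted values of 100 d over 45 d HVC, followed by SDHD of complex II. MRPL20 had 8 scaled reads in 100 d HVC and 35.3 and 32.1 in 45 d HVC (-2.06 ± 0.59, unadjusted p = 0.00734, adjusted p = 1). MRPL47 had 12 scaled reads at 100 d and 43.0 and 47.7 at 45 d (-1.91 ± 0.53, unadjusted p = 0.00633). Both 100 d values rest on few reads. MRPS17 had 73 scaled reads at 100 d and 140 and 158.8 at 45 d (-1.03 ± 0.33, unadjusted p = 0.0132). MRPS31 had 28 at 100 d and 60.6 and 75.3 at 45 d (-1.28 ± 0.44, unadjusted p = 0.0193). Of the 13 mitochondrial ribosomal genes fitted, 12 had a log2 fold change below 0, and MRPL19 alone lay above 0 (0.39 ± 0.30). MRPS14 was at -0.01 ± 0.30. MRPL41, outside the fit, had 1 read at 100 d and 14 over the 45 d libraries, a ratio of 0.143 with an exact 95% interval from 0.00337 to 0.938. MRPS7 was -0.68 ± 0.47, and its annotated span of 158332 bp overlaps 8 other listed genes, ATP5H among them.

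In the respiratory chain, NDUFB3 had 93 scaled reads in 100 d HVC and 253.5 and 163.3 in 45 d HVC (-1.16 ± 0.37, unadjusted p = 0.013). SDHD had 18 at 100 d and 88.2 and 45.0 at 45 d (-1.87 ± 0.58, unadjusted p = 0.0109), and its value without R92L1 was -1.30. UQCR, a small subunit of complex III, had 47 at 100 d and 86.0 and 100 at 45 d (-0.98 ± 0.38, unadjusted p = 0.0304). All 5 fitted complex IV genes were below 0, between -0.68 and -0.32, and none had an unadjusted p under 0.05. Of 6 ATP synthase genes, 5 were below 0, and ATP5H, a stalk subunit, was lowest at -1.10 ± 0.48. NDUFAB1 (0.67 ± 0.32), ATP5F1 (0.39 ± 0.30) and PFKFB3 (0.71 ± 0.44) had their 100 d library above both 45 d libraries, as did NDUFS4 (0.22 ± 0.26) and MRPL19. NDUFS8, a core subunit of complex I, had 0 reads at 100 d and 8 over both 45 d libraries. The exact 95% interval of its read ratio ran from 0 to 1.17, so these counts do not show that it was lower.

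ENO1 had 459 scaled reads in 100 d HVC and 638.1 and 919.5 in 45 d HVC (-0.76 ± 0.30, unadjusted p = 0.0324). Its 45 d libraries differed by 0.53 log2 units from each other. No marker of dividing and new cells or of astrocytes was called between the ages. All 4 fitted astrocyte markers had log2 fold changes below 0, and so had 3 of 4 fitted markers of dividing and new cells, while MCM6 had 0.64 ± 0.45. The 6 markers of dividing and new cells with counts, of 10, summed to 452 scaled reads in 100 d HVC and 665.7 and 836 in 45 d HVC, and 1 of them had a library at 0. The 4 astrocyte markers with counts, of 6, summed to 10710 scaled reads at 100 d and 15640 and 22460 at 45 d. Their part in the energy genes' values was not tested.

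In whole brain, 24 energy genes could be fitted between 100 d and 45 d and none was called, against 0.152% of 1318 transcripts in each direction. Of the 24, 17 were below 0 and 7 above, with a median of -0.44 against -0.03 for all, and at an unadjusted p under 0.05 there were 3 below 0 and 1 above, against 4.48% and 2.96% of all transcripts. MRPL40 had 37.8 scaled reads in 100 d WB and 113.8 in 45 d WB (-1.59 ± 0.46, unadjusted p = 8.0e-04, adjusted p = 0.535). COX7B had 419.5 at 100 d and 957.9 at 45 d (-1.19 ± 0.35, unadjusted p = 8.04e-04, adjusted p = 0.535). ENO1 lay the other way, with 395.6 scaled reads at 100 d and 196.1 at 45 d (1.01 ± 0.35, unadjusted p = 0.00424, adjusted p = 1). Each WB group is a single library, and the spread in this test comes from the 45 d HVC pair.

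Of 15 further energy genes with counts in both WB libraries but outside the fit, the exact interval of the 100 d over 45 d read ratio lay below 1 in 9 and above 1 in 5. All 15 were in the table of this comparison, listed by p-value, and the intervals cover counting error only. The share over all unfitted transcripts was not computed, so these counts show nothing particular to energy genes. LDHB had 4453 scaled reads in 100 d WB and 2483 in 45 d WB, a ratio of 1.79 (1.73 to 1.86). COX7C, a small complex IV subunit, had 5 reads at 100 d and 32 at 45 d, a ratio of 0.188 (0.0571 to 0.485). IDH1, the cytosolic isocitrate dehydrogenase, had a ratio of 0.725 (0.61 to 0.86), and MDH1, the cytosolic malate dehydrogenase, had 6 and 20 reads in 100 d and 45 d WB, a ratio of 0.36 (0.118 to 0.931). NDUFV1 had 0 reads at 100 d and 7 at 45 d, and the exact interval of its ratio ran from 0 to 0.834. ENO4 had 1 read at 100 d and 9 at 45 d, a ratio of 0.134 (0.00305 to 0.963).

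The age difference was also compared between tissues, for the 21 energy genes with counts in all libraries. None was called, against 0.17% of 1177 transcripts in each direction. ENO1 had the smallest p: its log2 fold change of 100 d over 45 d was lower in HVC than in WB by 1.77 (-1.77 ± 0.46, unadjusted p = 1.01e-04, adjusted p = 0.194). No other energy gene had an unadjusted p under 0.05, which 4.42% of all transcripts reached below 0 and 3.74% above. COX7B had 0.87 ± 0.47 and MRPL40 0.95 ± 0.61 in this contrast.

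Energy genes outside the symbol rule, from 8 lists of transporters, assembly and translation factors, chaperones, kinases and other enzymes, were read beside these. At 45 d, 7 of 23 fitted were higher and 4 lower in HVC than in WB, with a median log2 fold change of 0.92. Of all 1928 transcripts fitted, 15.1% were higher and 22.5% lower, with a median of -0.69. AURKAIP1, a protein of the mitochondrial ribosome, was higher with 164 and 264 reads in HVC and 75 in WB (2.35 ± 0.38, adjusted p = 1.13e-04). ATPIF1, the inhibitor of ATP synthase, was lower with 108 and 98 reads in HVC and 608 in WB (-1.69 ± 0.32, adjusted p = 8.44e-04). It was lower at 100 d as well, with 142 reads in HVC and 701 in WB (-1.71 ± 0.40, adjusted p = 0.00224). At 100 d, 2 of 13 were higher and 1 lower, against 10.7% and 13.7% of all transcripts. There 6 of the 13 were above 0 and 7 below, against 45.8% and 54.2% of all transcripts, with medians of -0.03 and -0.42. In the HVC age comparison none of 24 was called, nor was any of all 2150 transcripts. Of the 24, 17 were below 0, against 49.3% of all transcripts, with medians of -0.60 and 0.02. In WB none of 13 was called, against 0.152% of all transcripts in each direction. Of the 13, 9 were below 0, against 52.3% of all transcripts, with medians of -0.09 and -0.03. Whether calls of these genes held under other scalings or tools was not examined.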

How the data were processed

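Libraries were made with the NuGEN Ovation RNAseq kit, reads were mapped to taeGut1 with ELAND2, and the authors deposited raw read counts per transcript. Beside the counts the deposited tables hold the log2 ratios of the authors' own comparisons, each with its p-value before and after adjustment. The authors' columns were not used as results: the log2 values served to solve the relative library sizes (HVC at 100 d 1, HVC at 45 d 0.907 and 1.09, WB at 100 d 1.51, WB at 45 d 1.81), since full library totals were not used here, and the p-value columns gave the number of transcripts tested. Columns were matched to groups through the study's supplementary headers; which 45 d HVC column is which titled replicate is not given. Nothing says that the 2 libraries of 45 d HVC hold different birds. P-values of the main fits therefore measure the spread between them only, which may be technical. In the additive model of tissue and age, the spread also takes in any difference of the tissue fold change between ages.

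Counts were fitted with edgeR 4.0.16 (quasi-likelihood, 1 mean per group, filterByExpr), adjusted by the Benjamini-Hochberg method over the number the authors tested, and called at an adjusted p under 0.1. For age by tissue, which has no table of the authors, the largest of their numbers (11507) was used. The only residual degree of freedom came from the 45 d HVC pair, and single libraries were assumed to vary like it. Fits used the libraries of the groups compared and, where these lacked replicates, the 45 d HVC pair for the spread. Genes without these counts, and MRPL41 and NDUFS8, which filterByExpr removed for low counts, were given as read ratios with exact 95% intervals. Alternatives used DESeq2 1.42.0, limma 3.58.1, other scalings, filters and thresholds. The script was tested on simulated data: fold changes were recovered, but with the spread resting on a single pair, some draws for the 100 d tissue comparison and for age by tissue called none of the changed genes, so a low or zero count there does not show that genes did not differ. Symbols were matched to RefSeq (assembly bTaeGut7.mat, names only): 54 by symbol, 7 by synonym and 7 not. Members and lists were chosen with earlier results of these data known. Genes called in a group were named, at most 4 of the largest per group where more than 4 were called, with up to 2 well-read others; NDUFAB1, the genes of the age comparisons, AURKAIP1, ATPIF1 and the ratios of unfitted genes were named after their values were seen.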

Additional observations from a re-analysis of the deposited data

How the results depend on the processing

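No called energy gene changed sign under any alternative. At 45 d, 22 energy genes were called between HVC and WB, against 9 with TMM, 7 with plain sums, 5 with DESeq2 and 11 in an additive model of tissue and age over the 21 genes with all counts. Of all transcripts, 37.6% were called, against 14.7%, 9.09%, 6.33% and 49.3%. Relative log expression gave 16 energy genes at 45 d, limma-voom 23 and no filter on low counts 22. Those settings called 23.5%, 44.1% and 41.8% of all transcripts. At 100 d, 6 were called, against 1 with TMM and 0 with DESeq2. Of all transcripts, 24.5% were called, against 4.4% and 2.57%. The adult counts with relative log expression and plain sums are given above. The additive model has 1 tissue term for both ages, so its tissue fold changes are the same for 45 d and 100 d. Its residual takes in any difference of the tissue fold change between ages. With a 45 d HVC library left out, the residual holds that difference alone. Adjusted over the number tested at 100 d, it called 11 energy genes and 51.2% of all transcripts, which is not a separate adult result. Leaving out a 45 d HVC library in that model gave 0 calls without R92L1 and 11 without R92L2 at both ages; over all transcripts it gave 0 calls without R92L1 as well, and the cause was not tested. Both age comparisons and their difference between tissues gave 0 called energy genes under each alternative run. No paired analysis was possible because only the 45 d HVC group has numbered replicates. The design has 1 residual degree of freedom, low counts limit the genes under about 20 reads, and the tables list the smallest p-values only.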
